A study of Canis lupus familiaris with 22 samples.

Results

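The DNA replication machinery examined here is a set of 47 named genes whose products license, start and carry out the copying of the genome, or supply its nucleotides. A gene was taken as measured where the array annotation named it as the only symbol of a probe set, and 46 of the 47 genes were measured, over 110 of 42924 probe sets and among 15115 genes. LIG1, the ligase that joins the short fragments of the lagging strand, was not analysed here. RNA from 18 high grade canine invasive urothelial carcinomas (iUC), sampled by cystoscopy before any therapy, was compared with RNA from 4 bladders of healthy dogs without a tumour, 1 Affymetrix canine array per sample. The dogs carried naturally occurring tumours, no transgene or treatment was involved, and ages are not among the labels used here. The deposited values are on the log2 scale, with the median of every probe set over the 22 arrays set to 0. A value is thus a distance from that median, and the level of one gene cannot be set against that of another. A gene was called where limma gave a Benjamini-Hochberg adjusted p of 0.05 or below over all 15115 genes and the fold change was 2 or more (1 on the log2 scale).

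Copying of the genome begins in G1 phase, when the origin recognition complex, CDC6 and CDT1 load the ring-shaped MCM helicase on DNA. At the start of S phase the kinases CDK2 and CDC7 turn the loaded rings into active helicases by joining CDC45 and the GINS complex to them, after which primase, the polymerases, the PCNA clamp and its loader RFC build the new strands. Many of these genes are transcribed by E2F factors late in G1 and in S phase, whereas the genes of mitosis reach their highest transcription in G2 phase and mitosis. Normal urothelium renews slowly, and most of its cells rest outside the cycle.

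Facts of the whole series bear on what follows. The mean of 17 Affymetrix control probe sets named Tag fell into 2 sets of arrays. It was 0.28 to 0.46 on 7 iUC arrays (replicates 3, 4, 5, 6, 7, 13 and 18, called the high Tag arrays) and at most 0.13 on the other 11 iUC arrays and on all 4 normal arrays. The array labels carry 2 kinds of ending, one shared by all 18 iUC samples and normal replicate 1 and the other by normal replicates 2, 3 and 4, so the ending and the group can hardly be told apart. Normal replicates 3 and 4 correlated at r = 0.93 over probe sets, and the next pair at 0.76. The samples also differed in their cell types: of the smooth muscle markers 9 of 10 were called lower in iUC, with a mean over the list of -0.73 to 1.45 in the iUC samples and 3.11 to 4.95 in the normal samples. Of the measured urothelial markers 6 of 12 were called higher, with list means of -1.49 to 0.80 in iUC and -3.35 to -0.22 in normal bladder. Among fibroblast markers 7 of 8 were called lower and 1 higher. In the other marker lists 2 of 6 endothelial and 1 of 6 myeloid markers were lower. By limma 0 of 5 T cell and 0 of 3 measured B cell markers were called (0 and 0 also at an unadjusted p of 0.05). Of all genes 3.68% were called higher and 8.64% lower. The part of the cell type differences in the results below was not tested, and in bulk tissue a smaller number of cells of a type and less RNA per cell cannot be told apart.

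As a whole, the replication genes were called about as often as the other genes of the array. Of the 46 genes, 4 were called higher in iUC, or 8.7%, beside 3.68% of all genes, namely TK1, RRM2, MCM10 and MCM7. A further 2 were called lower, or 4.35%, beside 8.64% of all genes, namely ORC4 and ORC3. The other 40 were not called. Both directions together gave 13% of the replication genes and 12.3% of all genes. The median log2 fold change of the set was 0.10, against 0.08 over all genes, with 26 genes above 0 and 20 below. On adjusted p alone, without the fold minimum, 14 genes were higher (30.4%, beside 18.2% of all genes) and 7 were lower (15.2%, beside 17.5%).

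**Figure D1:**
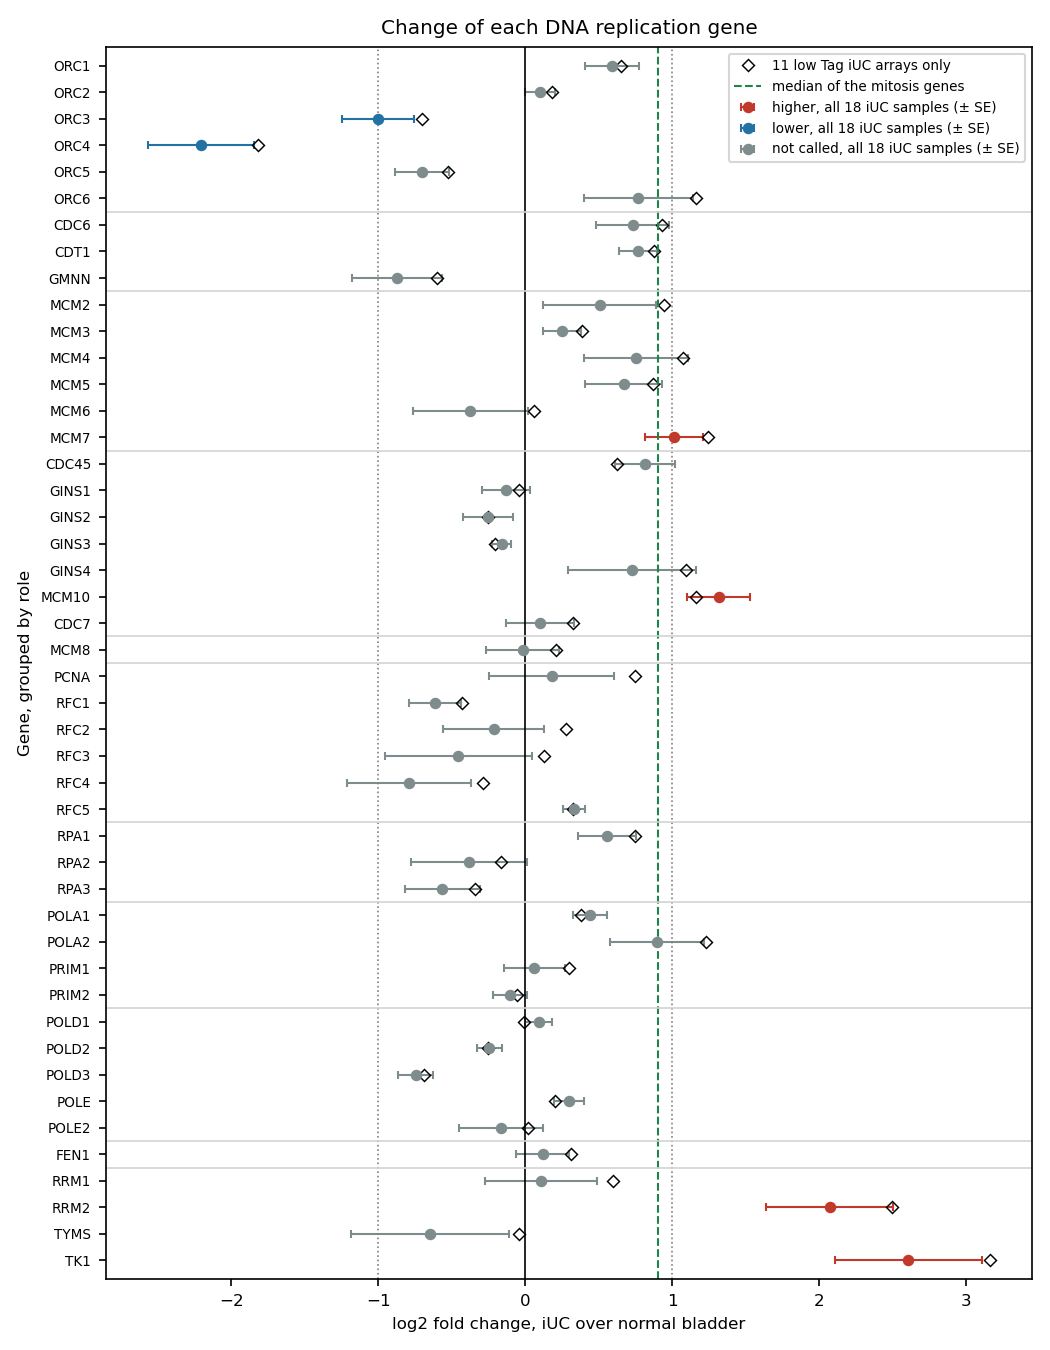
Log2 fold change of each of the 46 replication genes, iUC over normal bladder, with genes down the axis by role, circles and bars for the fit on all 18 iUC samples (± SE), open diamonds for the 11 low Tag iUC arrays, dotted lines at -1 and 1 and a dashed line at the median of the mitosis genes (0.91). TK1 and RRM2 lie far right at 2.61 and 2.07, ORC4 far left at -2.21, and most diamonds lie right of their circles.

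Of the 4 genes called higher, TK1 and RRM2 supply nucleotides. TK1, thymidine kinase of the salvage pathway, ranged from -1.25 through a median of 0.11 to 2.07 in iUC and was -0.92, -2.82, -2.72 and -2.72 in normal replicates 1 to 4. All iUC samples but replicates 7 and 18 lay above every normal sample, and iUC replicates 12 and 14 were the highest. The fitted difference was 2.61 (SE 0.50, 6.09-fold, adjusted p = 0.000469). RRM2, the regulated small subunit of ribonucleotide reductase, ranged from -1.49 through 0.27 to 1.38 in iUC, against -1.10, -2.34, -2.18 and -1.95 in normal bladder. Again 16 of 18 iUC samples exceeded all normal samples, with replicates 7 and 18 the exceptions, and the difference was 2.07 (SE 0.43, 4.20-fold, adjusted p = 0.00104). In both genes normal replicate 1 was the highest of the normal samples.

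The remaining genes of nucleotide supply were not called. RRM1, the large subunit of the same reductase, differed by 0.11 (95% confidence interval -0.68 to 0.90). TYMS, thymidylate synthase, makes the same nucleotide as TK1 by the de novo route and differed by -0.65 (-1.76 to 0.47). Its values spread from -2.04 through 0.01 to 1.25 in iUC and were -0.33, -0.02, 0.41 and 0.92 in normal replicates 1 to 4. Of the iUC samples 8 lay below all normal samples and 1 above, so the groups overlapped. Neither gene passed the test, and both intervals still hold differences past the fold minimum or close to it.

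**Figure D2:**
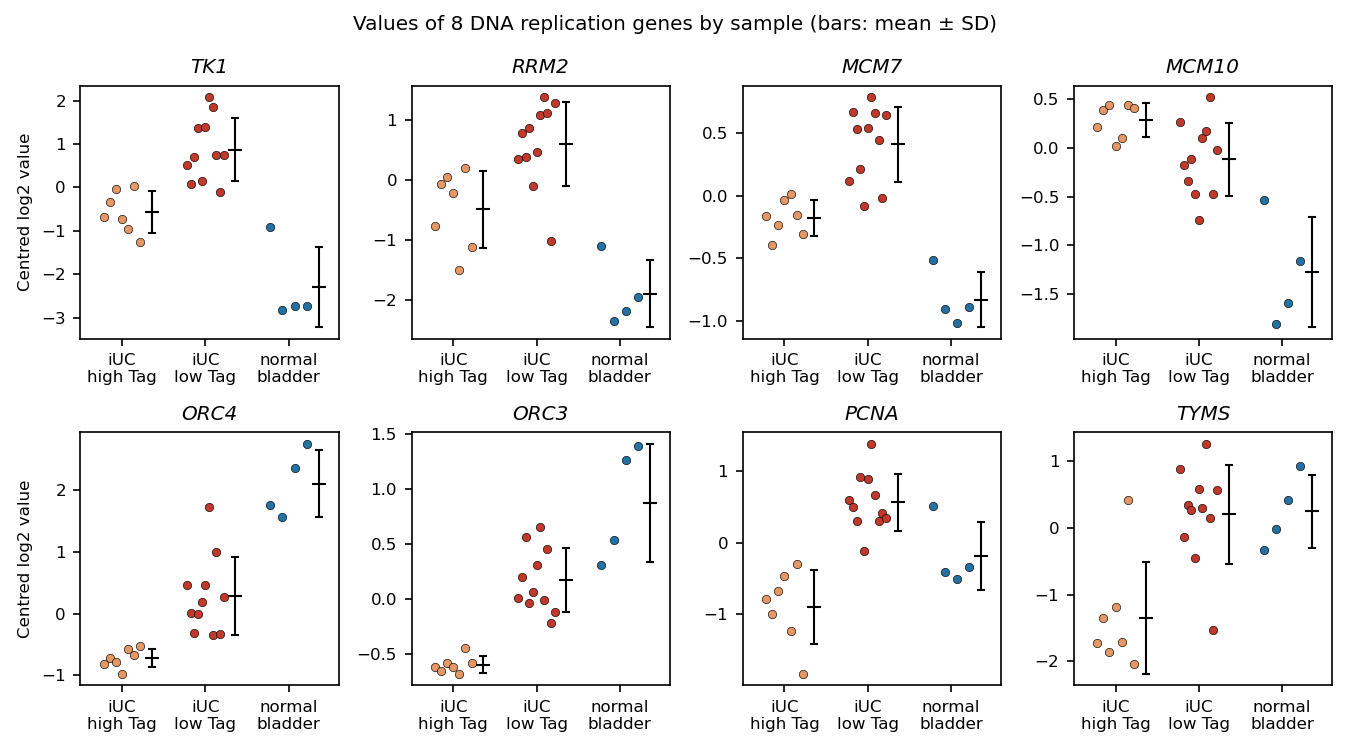
Centred log2 values of 8 replication genes, 1 point per sample, in the 7 high Tag iUC arrays, the 11 low Tag iUC arrays and the 4 normal bladder samples, with mean ± SD beside each set of points. TK1, RRM2, MCM7 and MCM10 are higher in iUC and ORC4 and ORC3 lower. The means of TK1, RRM2, MCM7, ORC4, ORC3, PCNA and TYMS lie lower on the high Tag than on the low Tag arrays. The mean of MCM10 lies higher on the high Tag arrays.

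The MCM2-7 ring is the engine of the replicative helicase, and 5 of its 6 subunits had a positive log2 fold change. Only MCM7 was called. It ranged from -0.39 through 0.06 to 0.79 in iUC, against -0.51, -0.91, -1.01 and -0.89 in normal bladder. All 18 iUC samples lay above all normal samples, and the difference of 1.01 (SE 0.20, 2.02-fold, adjusted p = 0.000554) was just past the fold minimum. Without normal replicate 2, 3 or 4 it was 0.99, 0.95 and 0.99 and no longer called. The differences of MCM4 (0.75), MCM5 (0.67), MCM2 (0.51) and MCM3 (0.25) lay below it, and of these MCM5 passed on adjusted p alone (0.0485). MCM6 differed by -0.37 (-1.18 to 0.43). In MCM2, MCM3, MCM4 and MCM5 alike 9 of 18 iUC samples exceeded all normal samples, and in each the highest normal sample was replicate 1. All 9 were low Tag arrays in MCM2, and 8 of the 9 in each of MCM3, MCM4 and MCM5. MCM8, which belongs to the MCM family but acts in homologous recombination rather than in the ring, differed by -0.02 (-0.54 to 0.50).

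Among the proteins that switch the helicase on, MCM10, which helps the assembled helicase start unwinding, was the only 1 of 7 called. It lay between -0.74 and 0.52 in iUC with a median of 0.10, against -0.54, -1.81, -1.60 and -1.16 in normal bladder. Only iUC replicate 11 fell below a normal sample, replicate 1, and the difference was 1.32 (SE 0.22, 2.49-fold, adjusted p = 9.83e-05). CDC45, the helicase cofactor, lay in every iUC sample above the highest normal value, at -0.45 to 0.88 against -0.53, -0.54, -0.99 and -0.51, but its difference of 0.82 (adjusted p = 0.00439) stayed under the fold minimum. The subunits of GINS, the other cofactor, were mixed. GINS4 differed by 0.73, GINS1 by -0.13, GINS2 by -0.25 and GINS3 by -0.16, and none of these 4 passed on adjusted p. CDC7, the catalytic subunit of the S phase kinase, differed by 0.10 (-0.38 to 0.58).

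The loaders of the helicase and their inhibitor differed in opposite directions. CDT1 and CDC6, which load the ring, differed by 0.77 (adjusted p = 0.000102) and 0.73 (adjusted p = 0.0276), and CDT1 was above all normal samples in all 18 iUC samples, with normal values of -0.40, -0.72, -0.71 and -0.96. Geminin (GMNN), which binds CDT1 and blocks reloading, differed by -0.87 (adjusted p = 0.032), and 15 of 18 iUC samples lay below all normal samples. Each of these 3 passed on adjusted p and none passed the fold minimum, although without normal replicate 1 the difference of GMNN was -1.02 and called. Without the high Tag arrays GMNN differed by -0.60 and no longer passed on adjusted p (0.134), while CDT1 (0.88) and CDC6 (0.93) still did. All iUC samples lay above all normal samples in 4 replication genes, CDT1, MCM7, CDC45 and RFC5 (8.7%, beside 3.22% of all genes), and in 0 did all lie below (beside 4.47%).

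The origin recognition complex, the platform on which licensing takes place, held both genes called lower. ORC4 ranged from -0.97 through -0.32 to 1.72 in iUC and was 1.75, 1.56, 2.34 and 2.74 in normal bladder. Of the iUC samples 17 lay below all normal samples and only replicate 12 fell among them. The difference was -2.21 (SE 0.36, 4.62-fold lower, adjusted p = 9.35e-05), and all 3 of its probe sets were called lower, at -2.55 to -2.01. ORC3 ranged from -0.68 through -0.08 to 0.66 in iUC, against 0.31, 0.53, 1.27 and 1.39 in normal bladder, with 14 of 18 iUC samples below all normal samples. Its difference of -1.001 (SE 0.25, adjusted p = 0.00396) lay at the fold minimum, and without normal replicate 3 or 4 it was -0.87 and -0.83 and no longer called. The 3 probe sets of ORC3 differed by -2.08, -1.07 and 0.15, and the first 2 were called lower. ORC5 was lower by adjusted p alone (-0.70, adjusted p = 0.00591). ORC1, the subunit whose amount follows the cell cycle in human cells, differed by 0.59 (adjusted p = 0.0183), ORC6 by 0.77 (adjusted p = 0.103) and ORC2 by 0.10.

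At the fork itself no gene was called. PCNA, the sliding clamp and a common marker of dividing cells, ranged from -1.83 through 0.31 to 1.38 in iUC, against 0.52, -0.41, -0.51 and -0.34 in normal bladder. Its difference was 0.18 (-0.70 to 1.07), and 5 iUC samples lay above all normal samples and 5 below. The subunits of the clamp loader differed by -0.61 (RFC1, adjusted p = 0.0111), -0.21 (RFC2), -0.45 (RFC3), -0.79 (RFC4) and 0.33 (RFC5, adjusted p = 0.00234). Of the single-strand binding protein RPA, RPA1 differed by 0.56 (adjusted p = 0.0334), RPA2 by -0.38 and RPA3 by -0.56. In polymerase alpha and primase, which lay down the first stretch of each fragment, POLA2 differed by 0.90 (adjusted p = 0.0351, and 1.09 and called without normal replicate 2) and POLA1 by 0.44 (adjusted p = 0.0066), whereas PRIM1 and PRIM2 differed by 0.06 and -0.10. The polymerases that extend the strands were also mixed: POLD3 was lower at -0.74 (adjusted p = 8.31e-05), POLD2 at -0.24 (adjusted p = 0.0304) and POLE higher at 0.30 (adjusted p = 0.0285), all under the fold minimum. POLD1, POLE2 and FEN1, the flap nuclease, differed by 0.09, -0.16 and 0.12.

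**Figure D3:**
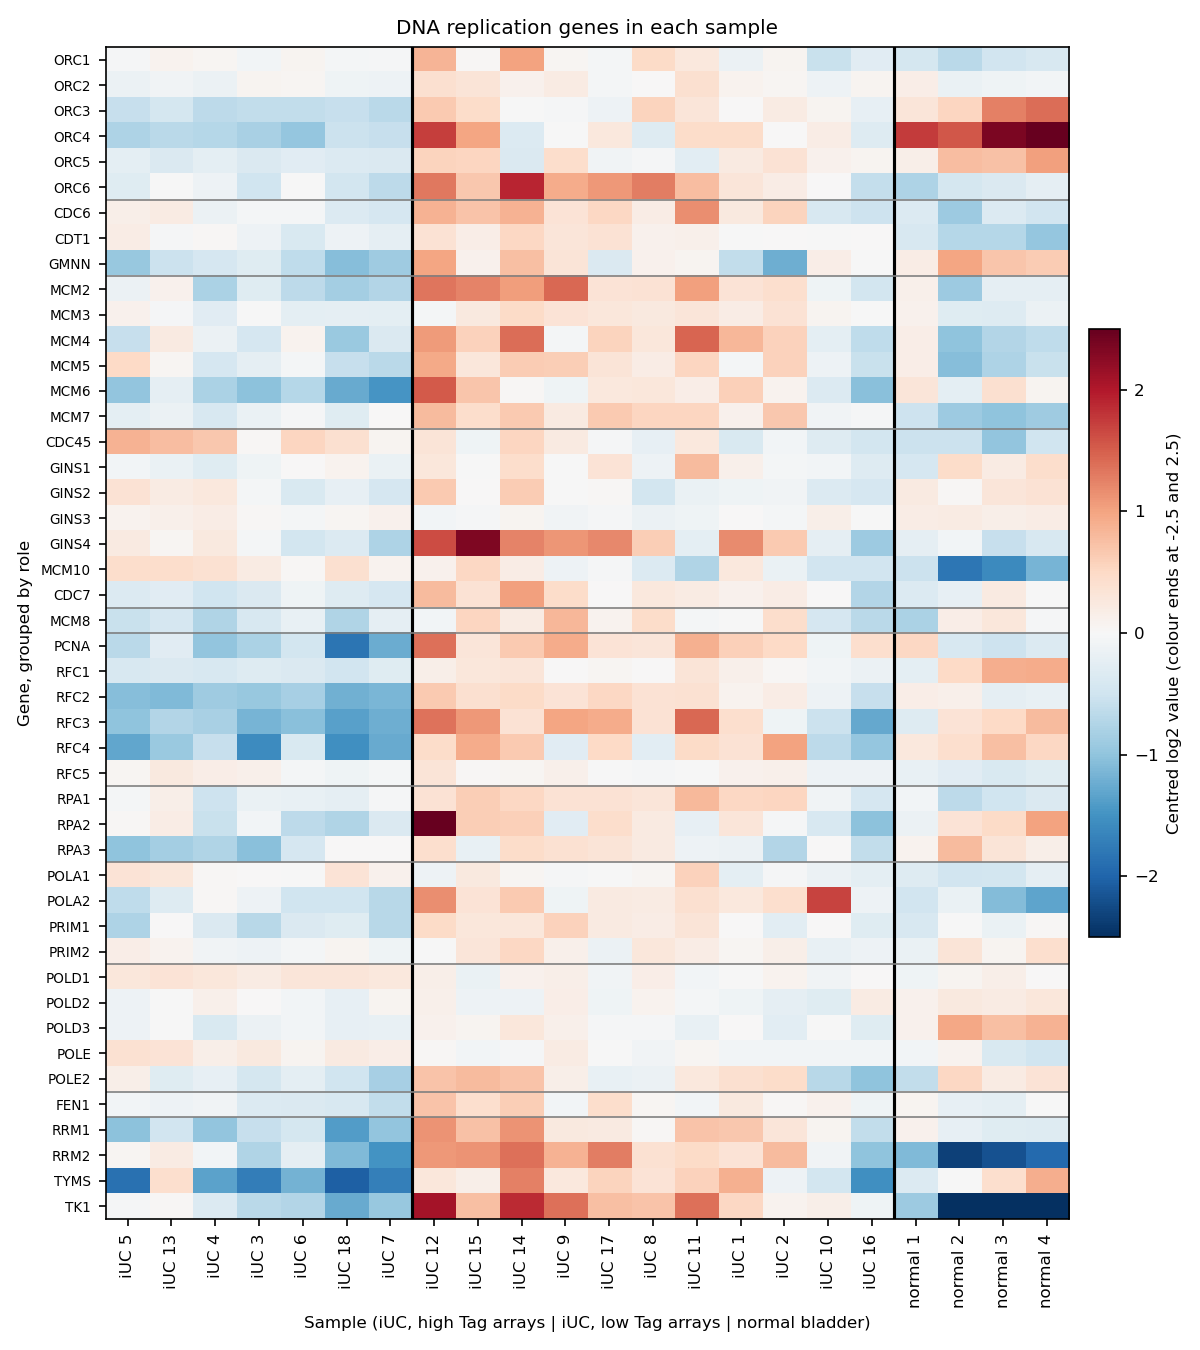
Centred log2 values of the 46 replication genes (down, grouped by role) in each sample (across), for high Tag iUC arrays, low Tag iUC arrays and normal bladder, each iUC set sorted by its mean over the mitosis genes, with colour ending at -2.5 and 2.5. TK1 and RRM2 are dark blue in normal replicates 2 to 4 and ORC4 dark red in all normal samples, and blue fills most or all of the high Tag columns at MCM6, PCNA, RFC2, RFC3, RFC4, RRM1 and TYMS.

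The tumours also differed among themselves, and much of this difference ran along the 2 sets of arrays. The mean of all 46 genes lay between -0.50 and -0.10 on the high Tag iUC arrays, between -0.40 and 0.71 on the low Tag iUC arrays and between -0.18 and -0.04 in the normal samples. The median gene was lower by 0.54 on the high than on the low Tag arrays, and the median difference over all genes was -0.01. In ORC3, ORC4, PCNA, RFC1 and RFC2 all 7 high Tag arrays lay below all 11 low Tag arrays (10.9%, beside 12.8% of all genes), and in POLD1 all lay above (beside 15.9%). PCNA was -1.83 to -0.29 on high Tag arrays and -0.11 to 1.38 on low Tag arrays, and the 4 normal values lay across both ranges. RFC2 was -1.20 to -0.83 on high Tag arrays, -0.58 to 0.66 on low Tag arrays and -0.23 to 0.16 in normal bladder. TYMS had medians of -1.71 on high Tag and 0.29 on low Tag arrays, a difference of means of -1.55 that was the largest of the 46. TK1 and RRM2 were also lower on the high Tag arrays, with differences of means of -1.43 and -1.09. CDC45 and MCM10 went the other way, with differences of 0.50 and 0.40. Whether the Tag signal had a part in these values was not tested.

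With the high Tag arrays set aside, so that 11 iUC samples met the 4 normal samples, 7 replication genes were called higher (15.2%, beside 5.23% of all genes) and 1 lower (2.17%, beside 5.96%), and the median was 0.29, against 0.06 over all genes. TK1 (3.16), RRM2 (2.49), MCM7 (1.24) and MCM10 (1.16) were called again, and POLA2 (1.23, adjusted p = 0.00525), ORC6 (1.16, adjusted p = 0.0166) and MCM4 (1.07, adjusted p = 0.0243) were added. ORC4 stayed lower at -1.82, and ORC3 at -0.70 was no longer called. PCNA differed by 0.75 (adjusted p = 0.0195) in that comparison, while TYMS (-0.04), RFC3 (0.13) and MCM6 (0.06) were close to 0. Between the high Tag arrays and normal bladder the median difference of the 46 genes was -0.18.

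Genes of mitosis, 61 measured of 67 listed, gave another picture. Of them 26 were called higher (42.6%, beside 3.68% of all genes) and 0 lower by limma, with 1 lower at an unadjusted p of 0.05, and their median log2 fold change was 0.91 against 0.10 for the replication genes. In 30 of the 61 (49.2%) all iUC samples lay above all normal samples, against 4 of 46 replication genes (8.7%) and 3.22% of all genes. TOP2A, the topoisomerase that untangles sister chromatids, differed by 2.84 (SE 0.55), the securin PTTG1 by 2.72 (SE 0.28), CDC20, which activates the anaphase-promoting complex, by 2.30 (SE 0.56), RACGAP1, needed for cytokinesis, by 2.05 (SE 0.29) and the mitotic kinase CDK1 by 1.95 (SE 0.54), with adjusted p between 2.29e-07 and 0.00917. MKI67 was not analysed here. Both lists were chosen with earlier results of these data known, and the difference between the lists was not tested.

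The 2 lists also differed in how far the groups lay apart in each sample. The mean over the mitosis genes was -0.47 to 0.92 in iUC and -0.85 to -0.67 in normal bladder, with no overlap, whereas the iUC range of the replication mean took in all 4 normal samples. The medians of the lists also differed within each set of arrays, but both sets were compared with the same 4 normal samples. On the high Tag arrays the median mitosis gene differed from normal bladder by 0.76 and the median replication gene by -0.18 (0.05 over all genes). With the low Tag arrays alone the medians were 0.97 and 0.29 (0.06 over all genes). The number of iUC samples above all normal samples had a median of 17 over mitosis genes, 6.5 over replication genes and 5 over all genes. The median SD of a replication gene was 0.385 among low Tag iUC samples, 0.215 among high Tag iUC samples and 0.267 among normal samples. That of a mitosis gene was 0.472, 0.221 and 0.201 in the same order, and over all genes it was 0.210, 0.181 and 0.236.

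**Figure D4:**
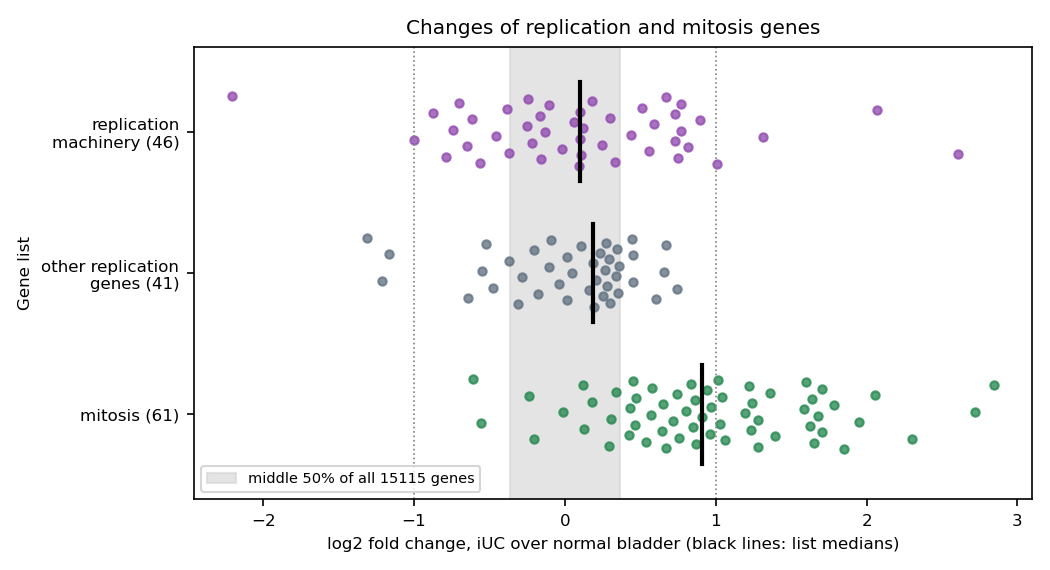
Log2 fold change, iUC over normal bladder, of each gene of 3 lists (1 point per gene, black line at the median), with the grey band holding the middle 50% of all 15115 genes and dotted lines at the fold minimum. The medians are 0.10 for the replication machinery, 0.19 for 41 other replication genes and 0.91 for 61 mitosis genes.

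The ending of the array labels touches all of these calls, since with the ending as a block only normal replicate 1 is set against the iUC samples. The differences were then 1.23 for TK1, 1.28 for RRM2, 0.58 for MCM10, 0.69 for MCM7, -1.86 for ORC4 and -0.43 for ORC3, with adjusted p between 0.227 and 0.845. In that limma fit 0 replication genes were called higher and 0 lower (0 and 1 at an unadjusted p of 0.05), and over all genes 15 were higher and 389 lower. Of the mitosis genes 1 was called higher, at a median of 0.93. Every one of the 6 genes kept its sign.

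In the fit on all 18 iUC samples the calls in the list of other pathway genes were all lower, at about the share of all genes. Of 44 further replication genes (accessory polymerase and helicase factors, chromatin assembly, RNase H2 and fork protection), 41 were measured, 0 were called higher by limma (beside 3.68% of all genes), with 13 higher at an unadjusted p of 0.05 and 10 on adjusted p alone (24.4%, beside 18.2%). A further 3 were called lower (7.32%, beside 8.64%), and the median was 0.19. Those 3 were POLE4, a small subunit of polymerase epsilon (-1.31), RNASEH2C, a subunit of the nuclease that removes ribonucleotides (-1.21), and DBF4, the activator of CDC7 (-1.17). Without normal replicate 2, 3 or 4 DBF4 differed by -1.16, -0.98 and -1.11 and was no longer called. With the high Tag arrays set aside, 2 genes of this list were called higher (4.88%, beside 5.23% of all genes). In the same fit 1 was called lower (2.44%, beside 5.96%). Of 12 measured genes of G1/S control 4 were called higher (33.3%, beside 3.68% of all genes), namely the cyclin CCNE2 (1.35) and the transcription factors E2F8 (1.31), E2F3 (1.18) and E2F1 (1.02), and 0 lower by limma, also at an unadjusted p of 0.05. E2F3 lost its call without any 1 of the normal samples (1.10 to 1.28, adjusted p 0.0554 to 0.126), and E2F1 without normal replicate 2 or 3 (0.97 and 0.98). Without the high Tag arrays CCNE2 and E2F8 were still called (16.7%, beside 5.23%), and E2F3 and E2F1 fell under the fold minimum at 0.49 and 0.66.

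Across the tumours of each set of arrays, most replication genes correlated positively with the mean of the mitosis genes, though few or none passed adjustment. Since the 2 sets of arrays differ in the Tag control signal, these correlations were computed within each set. They were tested by two-sided permutation p, with Benjamini-Hochberg adjustment over the 15054 genes outside the mitosis list. Among the 11 low Tag iUC samples 45 of 46 replication genes correlated positively, beside 5867 of the 15054 genes. Their median Pearson r was 0.70 and their median Spearman rho 0.63, whereas the median r over all genes was -0.18. Of the 41 further replication genes 34 correlated positively, at a median r of 0.49. An unadjusted p of 0.05 or below with positive r was reached by 31 of the 46 genes (67.4%, beside 5.73% of all genes), and after adjustment by 7 (15.2%, beside 0.472%). These were RFC2 (r = 0.93, rho = 0.87, adjusted permutation p = 0.0297), MCM2 (r = 0.89, rho = 0.81, adjusted permutation p = 0.0289), RFC3, RRM2, GINS4, CDC7 and ORC6 (r between 0.85 and 0.87). At an unadjusted p of 0.05 a positive rho was reached by 24 genes, and after adjustment by 0. Without the 2 samples farthest from the median mitosis mean, replicates 16 and 10, the median r was 0.49. The 7 genes kept an r above 0.5, but so did all 71 genes of the array that passed adjustment with positive r. In all, 21 of 46 replication genes had an r above 0.5, beside 1293 of the 15054 genes. Among the replication genes that did not pass adjustment, TK1 reached r = 0.82 over all 11 samples, MCM7 0.67 and PCNA 0.51. The lowest values were those of POLA2 (0.10), POLD2 (0.03) and GINS3 (-0.28).

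Among the 7 high Tag samples 8834 of the 15054 genes correlated positively, and the median r and rho of all were 0.12 and 0.11. Of the 41 further replication genes 26 correlated positively, at a median r of 0.14. Of the 46 replication genes 38 correlated positively, at a median r of 0.46 and rho of 0.38. Of these 11 reached an unadjusted p of 0.05 or below (23.9%, beside 3.22%), and 0 passed after adjustment (exact permutation test over 5040 orders, lowest adjusted p = 0.482). FEN1 and TK1 had the highest r, both 0.95, and RPA3 the lowest at -0.87. Without the 2 farthest samples the median r was 0.55. In the low Tag set iUC replicates 12, 14 and 15 had the 3 highest means of both lists, and replicate 16 the lowest of both.

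**Figure D5:**
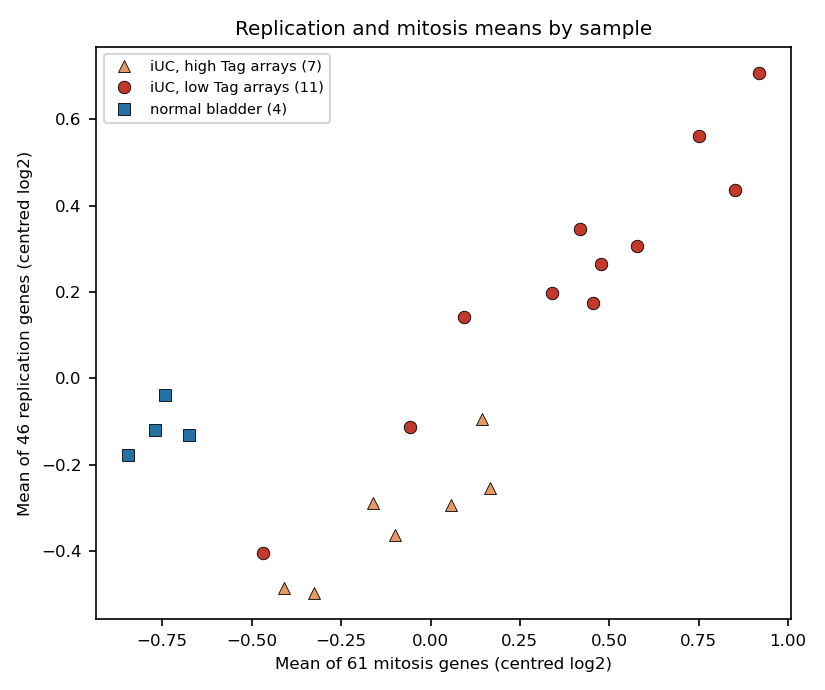
Mean of the 46 replication genes against the mean of the 61 mitosis genes in each sample (centred log2), with triangles for high Tag iUC arrays, circles for low Tag iUC arrays and squares for normal bladder. The 4 normal samples lie left of all tumours at a mitosis mean of -0.67 or below, yet their replication means (-0.18 to -0.04) lie above those of 6 of the 7 high Tag tumours.

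Probe sets of a gene did not always move together. Of the 46 genes 36 had 2 or more probe sets, and in 14 these had fold changes of both signs. Among the genes called higher, TK1 and MCM10 had 1 probe set each, and the 2 probe sets of RRM2 were both called. In MCM7 1 of 2 probe sets was called (1.03), and the other lay at 0.99. Counting a gene where at least 1 of its probe sets was called, 8 replication genes were higher (17.4%, beside 7.21% of all genes) and 7 lower (15.2%, beside 14.4%), and 0 were both. MCM4, RFC5, RPA1 and POLA2 joined the genes called higher, and ORC5, GMNN, RFC1, POLD2 and POLD3 those called lower. In RFC5 the 3 probe sets differed by 1.03, 0.03 and -0.06, in RPA1 by 1.39, 0.18 and 0.10, and in POLD3 by -1.43, -0.79 and -0.01. In POLD2 the 4 lay between -1.35 and 0.74. Of the 110 probe sets 9 were called higher (8.18%, beside 3.9% of all probe sets) and 11 lower (10%, beside 10.7%), whereas 48 of the 121 probe sets of mitosis genes were higher (39.7%) and 0 lower. The share of probe sets that hardly varied over the 22 samples (SD under 0.2) was alike, at 11.8% for replication genes and 11.6% for mitosis genes, beside 23.4% of all.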

How the data were processed

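Total RNA of each sample was labelled from 5 µg and hybridised to 1 Affymetrix canine array. The authors processed the arrays in GeneSpring GX and deposited log2 values for 43035 probe sets. The median of each probe set over the 22 samples lies within 1e-06 of 0, so the deposited log2 values are centred and run from -7.34 to 8.25. The method of probe summarisation and array normalization was not given in the sources used here. Since centred values hold no level, no filter on low values was made, and probe sets of low signal could not be told from the others. The number of arrays also limits the precision.

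Without 111 control probe sets, 42924 remained, of which 29254 had 1 gene symbol in the platform annotation, 439 several and 13231 none. The mean of the probe sets with 1 symbol was taken for each of 15115 genes. Groups came from the sample titles, whose replicates are biological. The iUC samples were set against the normal samples in limma 3.58.1 (R 4.3.3), by lmFit and eBayes without covariates, and p was adjusted by Benjamini-Hochberg across all genes, or across all 42924 probe sets for single probe sets. Confidence intervals are 95% intervals of the limma fit. Correlations were tested by permutation of the samples, in full for 7 samples (exact) and by 1e+05 draws for 11. The design had planned to adjust these over the replication genes, and adjustment over 15054 genes took its place. A planned description of promoter motifs was not run, since no promoter table was used here. The code was tested on simulated data. Figures were drawn with matplotlib 3.10.9.

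The members, the gene lists and the tests were chosen with earlier results of these data known. Any of the 47 replication genes could be named, and of the other lists the called genes with the largest fold changes, at most 5 from mitosis and 4 from each other list. The other settings tried were array weights, quantile normalization, subtraction of the 75th percentile of each array and the median of probe sets. Also tried were single probe sets, adjusted p alone, and blocks for label ending and replicate number. The rest were normal replicates 3 and 4 as 1 sample, and leaving out each normal sample or the high Tag arrays.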

Additional observations from a re-analysis of the deposited data

Results flagged for a closer look

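Of 58 genes whose 4 normal values were examined, 3 had 1 normal sample far from the other 3 relative to the range of the group (Dixon's ratio past its critical value for 4 samples). Chance alone gives about 5% of such groups. TK1 was -0.917 in normal bladder replicate 1, while the other normal samples lay between -2.82 and -2.72. PCNA was 0.517 in the same sample, against -0.51 to -0.34 in the other normal samples. CDC45 was -0.989 in normal bladder replicate 3, against -0.54 to -0.51. Normal replicate 1 is also the 1 normal sample whose label ending is that of the iUC samples.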

How the results depend on the processing

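The count of 4 replication genes higher in iUC was 2 after quantile normalization, 7 without the high Tag arrays, 7 with array weights, 0 with the label ending as a block, 8 by single probe sets and 14 on adjusted p alone, and it ran from 3 to 4 when 1 normal sample was left out. The same 4 genes were among the 7 in both cases. After scaling to the 75th percentile POLA2 joined these 4 genes. With normal replicates 3 and 4 as 1 sample MCM7 was no longer called higher. The count of 2 lower was 1 after quantile normalization, after scaling to the 75th percentile, with normal replicates 3 and 4 as 1 sample and without the high Tag arrays, 0 with the label ending as a block, 7 by single probe sets and 7 on adjusted p alone, and it ran from 1 to 3 when 1 normal sample was left out. With the replicate number as a block 3 replication genes were higher and 0 lower, but the numbers only name dogs and the deviations of same-numbered samples correlated at -0.17 to 0.13, so they do not pair the samples. The count of 26 higher mitosis genes was 1 with the label ending as a block, 14 with the replicate block and 46 on adjusted p alone. Among the high Tag samples 11 replication genes correlated positively with the mitosis mean at an unadjusted permutation p of 0.05. Without the 2 farthest samples 26 had an r above 0.5, beside 2465 of the 15054 genes outside the mitosis list. The median log2 fold change stayed positive under every one of these settings that gives one, at 0.02 to 0.29 for replication and 0.83 to 1.02 for mitosis genes. Higher genes were 29.9% of all called genes, 40.6% after quantile normalization and 42.8% after scaling to the 75th percentile, which moved the median of all genes to 0.20. MCM10 and MCM7 were at 0.96 and 0.98 after quantile normalization, under the fold minimum. With 4 normal samples the precision is limited by their number. The causes of these shifts were not tested.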
